A study of Bos taurus with 12 samples.

Results

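The genes described are the receptors through which ovarian and adrenal steroids act on the epithelium of the bovine oviduct. They are the estrogen receptors alpha and beta (ESR1, ESR2), the nuclear progesterone receptor (PGR), the progesterone receptor membrane components PGRMC1 and PGRMC2, the glucocorticoid receptor (NR3C1) and the mineralocorticoid receptor (NR3C2). Members were found by gene symbol among the probesets of the array, a probeset being a group of probes that reads 1 transcript. The 7 genes, of 18010 that could be named by a probeset of their own, had 9 of the 26773 probesets. ESR1 and PGR had more than 1, and were read on the brighter.

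Nuclear steroid receptors are transcription factors that wait in a complex with chaperones, bind their hormone and then switch genes on or off together with coregulators. Estradiol, which dominates the follicular phase, acts through ESR1 and ESR2 and is known in many tissues of the reproductive tract for raising PGR, whereas progesterone, which dominates the luteal phase, is known for lowering it. PGRMC1 and PGRMC2 are small heme-binding membrane proteins that do not belong to the nuclear receptors. NR3C1 answers cortisol, and NR3C2 answers aldosterone and also binds cortisol and progesterone.

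RNA came from epithelial cells that had been squeezed from the ampulla, the upper segment of the oviduct where fertilization takes place, and from the isthmus, the segment next to the uterus. The donors were 6 normally cycling Angus heifers, cattle that have not yet calved, whose age the labels do not state, and both tissues of each were hybridized to 1 array each. In the luteal phase (LP) group 3 heifers, for which no treatment is recorded, were killed on day 11 or 12. In the follicular phase (FP) group 3 heifers were given 25 mg of PGF2α, which ends the life of the corpus luteum, on day 6 and were killed 36 h later. The phases therefore differed in recorded drug treatment and in day of the cycle as well as in hormones, which cannot be told apart. The labels count days from ovulation and the methods from estrus.

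Values are log2 signals, on which a difference of 1 is a doubling of the signal. They have no zero and no detection call, and the lower quartile, median and upper quartile of an array lay at 5.68 to 5.82, 7.33 to 7.40 and 9.18 to 9.26. Markers of epithelium averaged 10.08 to 10.51 per array, secretory markers 9.56 to 10.34 and ciliated markers 10.99 to 11.45, all above the upper quartile of the arrays, as the labelled tissue requires. The list means of markers of other cells were lower, and some moved with the groups. Single markers did not all follow this order. In the LP ampulla the group means of C1QB (10.59, macrophages) and KDR (10.83, endothelium) were above the upper quartile. Those of the epithelial markers KRT8 (8.43) and CLDN3 (8.83) were below it there. The mean of 6 T and NK cell markers ranged over 5.84 to 6.28 (FP) and 6.87 to 8.61 (LP) in the ampulla, and over 5.93 to 6.58 (FP) and 6.86 to 8.33 (LP) in the isthmus. The mean of 7 fibroblast markers was 6.56 to 7.12 in the ampulla and 6.82 to 8.72 in the isthmus. Since these are bulk preparations, fewer cells of a type and less RNA per cell cannot be told apart.

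The labels number the heifers, so that the ampulla and the isthmus of 1 animal are paired. After group means were removed, same-heifer arrays in the LP correlated at 0.22 to 0.37 over all probesets and arrays of different heifers at -0.22 to -0.048. In the FP the same-heifer correlations were -0.17 to -0.051, and each ampulla array correlated best (0.16 to 0.24) with an isthmus array of another number. Differences within FP heifers, FP heifer means and results without 1 FP heifer below therefore rest on the labels, and the tests between tissues took the arrays as separate samples.

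ESR1, the estrogen receptor that carries most of the uterine response to estradiol in mice, was high on every array and differed little between the groups. Its log2 signals were 12.51, 12.24 and 12.22 in the FP ampulla against 12.24, 12.45 and 12.64 in the LP ampulla, and 12.69, 12.67 and 12.59 in the FP isthmus against 12.67, 12.42 and 12.68 in the LP isthmus. All 12 values lay well above the upper quartile of the arrays, and the ranges of neighbouring groups in the order of means overlapped throughout. The FP isthmus and FP ampulla, at the ends of that order, did not overlap. They differed by 0.32 (95% interval 0.054 to 0.593, limma adjusted p = 0.195, not called), an interval that reached just past 1.5-fold. FP minus LP was -0.12 in the ampulla (95% interval -0.39 to 0.15, limma adjusted p = 0.588) and 0.057 in the isthmus (-0.21 to 0.33, adjusted p = 0.813), so that a change of more than 1.5-fold lay outside the interval in both tissues. The other ESR1 probeset gave -0.26 (95% interval -0.596 to 0.070) and 0.038 (-0.30 to 0.37), also not called. Its ampulla interval reached just past 1.5-fold, so the limit above holds for the brighter probeset only.

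ESR2, the receptor with which ESR1 shares its ligand and most of its DNA binding domain, was lower in the FP than in the LP and higher in the isthmus than in the ampulla. Signals were 8.29, 8.44 and 8.79 in the FP ampulla against 9.36, 10.24 and 9.07 in the LP ampulla. In the isthmus they were 9.65, 9.71 and 9.56 in the FP and 10.98, 11.23 and 10.88 in the LP. No FP value reached an LP value of the same tissue, and no ampulla value reached an isthmus value of the same phase, while the FP isthmus and the LP ampulla overlapped in the middle of the order (means 9.64 and 9.56). In the isthmus ESR2 fell by 1.39 in the FP (SE 0.25, 2.62-fold, adjusted p = 0.00433), and in the ampulla by 1.05 (SE 0.25, 2.07-fold, adjusted p = 0.0174). The ampulla call ended without FP replicate 1 or 2 (differences -0.94 and -1.02, adjusted p = 0.0884 and 0.0848) and when only the ampulla groups were fitted (adjusted p = 0.0752), and the difference was -0.71 without LP replicate 2, the array at 10.24.

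PGR, the nuclear receptor that carries the transcriptional response to progesterone, went the other way between the phases and was higher in the FP. Its signals were 11.04, 9.89 and 10.44 in the FP ampulla against 9.51, 9.38 and 9.81 in the LP ampulla. In the isthmus they were 11.67, 11.76 and 11.32 in the FP and 10.23, 10.10 and 10.14 in the LP. The phases did not overlap in the isthmus, where every FP value was more than 1 log2 unit above every LP value, and in the ampulla the lowest FP array, at 9.89, lay just above the highest LP array, at 9.81. PGR rose by 1.43 in the FP isthmus (SE 0.24, 2.69-fold, adjusted p = 0.00317) and by 0.89 in the FP ampulla (SE 0.24, 1.85-fold, adjusted p = 0.0309). The ampulla call was lost without FP replicate 1 (0.60, adjusted p = 0.102), FP replicate 3 (0.90, 0.0781) or any of LP replicates 1, 2 and 3 (adjusted p = 0.112, 0.12 and 0.0512), and when only the ampulla groups were fitted (adjusted p = 0.0981). The other PGR probeset, which was dim at 5.73 to 7.06, had the same order of group means, with differences of 0.90 in the isthmus (adjusted p = 0.000266) and 0.35 in the ampulla (adjusted p = 0.0257).

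**Figure D1:**
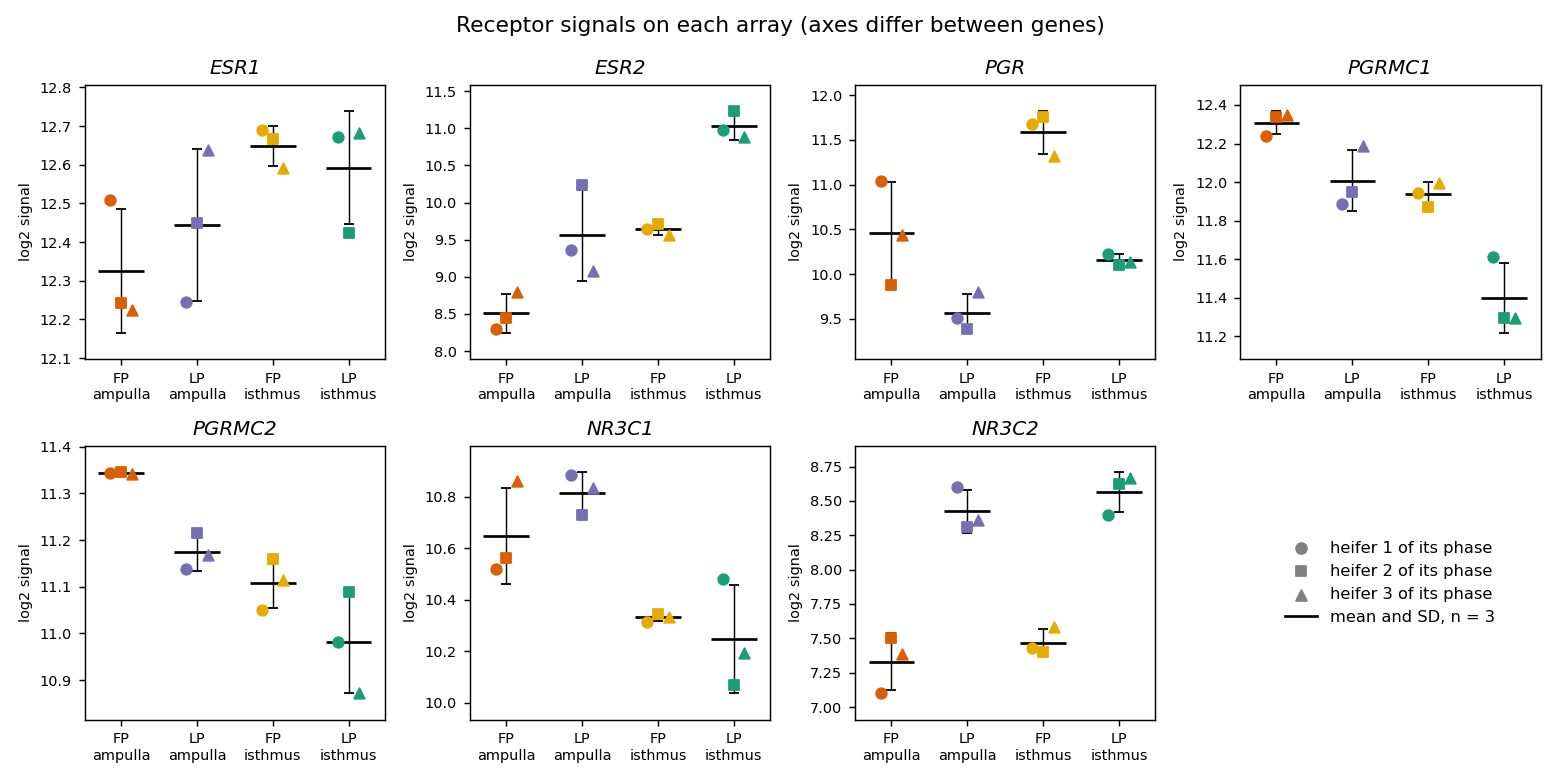
Log2 signal (vertical axes, which differ between genes) of the 7 receptor genes on each of the 12 arrays, by group, with the symbol giving the number of the heifer within its phase and the line and bar the mean and SD of 3 arrays. ESR2 and NR3C2 sit lower in the FP than in the LP of the same tissue and PGR higher, and PGRMC1, PGRMC2 and NR3C1 are higher in the ampulla than in the isthmus of the same phase.

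PGRMC1, which binds heme and takes part in sterol synthesis and in cytochrome P450 function, was highest in the FP ampulla and lowest in the LP isthmus. It read 12.24, 12.34 and 12.35 in the FP ampulla against 11.88, 11.95 and 12.19 in the LP ampulla, and 11.94, 11.87 and 11.99 in the FP isthmus against 11.61, 11.30 and 11.30 in the LP isthmus. Each FP group stood above the LP group of its tissue without overlap, and the LP ampulla and FP isthmus could not be separated by their ranges. In the isthmus the FP signal was higher by 0.53 (SE 0.11, adjusted p = 0.00812), which at 1.45-fold was under the minimum fold of a call (without LP replicate 1 it was 0.64 and called), and in the ampulla the difference was 0.30 (SE 0.11, 1.23-fold, adjusted p = 0.0919).

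PGRMC2, the related protein that escorts heme to the nucleus in mouse fat cells, kept the same order of groups within a narrower span. It read 11.34 on all 3 FP ampulla arrays against 11.14, 11.22 and 11.17 in the LP ampulla, and 11.05, 11.16 and 11.11 in the FP isthmus against 10.98, 11.09 and 10.87 in the LP isthmus. The 3 FP ampulla arrays lay above all others, and the remaining groups overlapped their neighbours. Its FP minus LP differences were 0.17 in the ampulla (SE 0.076, adjusted p = 0.163) and 0.13 in the isthmus (SE 0.076, adjusted p = 0.302), and the intervals (0.0023 to 0.34 and -0.040 to 0.29) left no room for a 1.5-fold change.

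NR3C1, the glucocorticoid receptor, separated by tissue and not by phase. Signals were 10.52, 10.56 and 10.86 in the FP ampulla against 10.88, 10.73 and 10.83 in the LP ampulla, and 10.32, 10.35 and 10.34 in the FP isthmus against 10.48, 10.07 and 10.19 in the LP isthmus. Every ampulla value was above every isthmus value, whereas FP and LP overlapped within each tissue. FP minus LP was -0.17 in the ampulla (SE 0.12, adjusted p = 0.407) and 0.084 in the isthmus (SE 0.12, adjusted p = 0.705).

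NR3C2, the mineralocorticoid receptor, separated by phase and not by tissue. It read 7.10, 7.50 and 7.39 in the FP ampulla against 8.60, 8.31 and 8.36 in the LP ampulla, and 7.43, 7.40 and 7.58 in the FP isthmus and 8.40, 8.63 and 8.67 in the LP isthmus. All 6 FP arrays lay below all 6 LP arrays, while the tissues overlapped within each phase. In the FP it fell by 1.09 in the ampulla (SE 0.13, 2.14-fold, adjusted p = 0.000401) and by 1.09 in the isthmus (SE 0.13, adjusted p = 0.000461). Both calls held in all 16 alternative settings, over which the difference ranged from -1.18 to -0.98 and from -1.18 to -1.04.

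Between the phases, then, 3 of the 7 genes passed an adjusted p under 0.05 with a fold of at least 1.5 in the ampulla, where 7.82% of all 26773 probesets passed (4.44% higher in the FP, 3.38% lower), and the same 3 genes passed in the isthmus, where 8.44% did (4.4% higher, 4.04% lower). ESR2 and NR3C2 were lower in the FP and PGR was higher. With no minimum fold PGRMC1 was added in the isthmus, where 17.1% of probesets passed. With the heifer as the unit and both tissues averaged, the calls were ESR2 at -1.22 (SE 0.19, adjusted p = 0.00755), PGR at 1.16 (SE 0.15, adjusted p = 0.00441) and NR3C2 at -1.09 (SE 0.078, adjusted p = 0.00104), against 7.96% of probesets, and these calls held in each of the 14 alternatives. PGRMC1 was 0.42 higher in the FP (SE 0.068, 1.33-fold, adjusted p = 0.00825) and passed only with no minimum fold, as did 21.8% of probesets. The heifer means of the 3 called genes did not overlap between the phases, with ESR2 at 8.97 to 9.18 in FP and 9.98 to 10.73 in LP heifers, PGR at 10.82 to 11.36 and 9.74 to 9.97, and NR3C2 at 7.27 to 7.48 and 8.47 to 8.51. The calls were made on the same means, so this is no separate support. Heifer means of 2 genes not called were apart as well, PGRMC1 at 12.09 to 12.17 and 11.62 to 11.75, and PGRMC2 at 11.20 to 11.25 and 11.02 to 11.15. The share of all probesets with heifer means apart was not counted, so these separations are description only. These means, and the results without a heifer, take the 2 arrays of an animal number as 1 heifer, while the contrasts within a tissue over all arrays do not use the numbers.

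Leukocyte markers moved with the phase too, where 3.38% of all probesets were called lower in the FP ampulla and 4.04% in the FP isthmus. Of 6 macrophage markers CSF1R, C1QA and C1QB were called lower in the FP in both tissues and the other 3 were not called, CD163 and CD68 having FP minus LP differences of -0.26 and -0.28 in the ampulla and 0.32 and 0.083 in the isthmus. Of 6 T and NK cell markers CD3E and CD2 were called lower in the ampulla and 0 in the isthmus (limma; 5 were lower in each tissue at an unadjusted p under 0.05). On the LP ampulla arrays the T and NK cell mean was 7.06, 6.87 and 8.61. ESR2 read 9.36, 10.24 and 9.07 on these arrays and NR3C2 8.60, 8.31 and 8.36. On the LP isthmus arrays that mean was 7.03, 6.86 and 8.33. ESR2 read 10.98, 11.23 and 10.88 there and NR3C2 8.40, 8.63 and 8.67. The part of these cells in the phase differences was not tested.

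**Figure D2:**
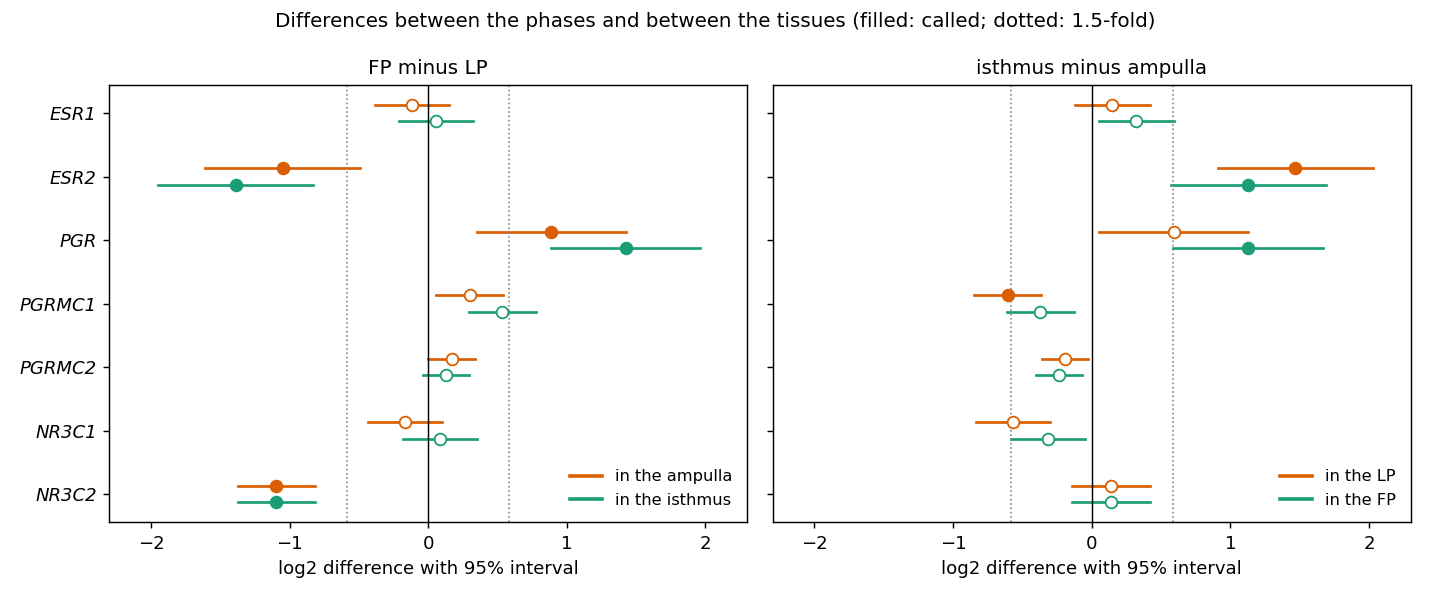
Log2 differences with 95% intervals from limma for the 7 genes, FP minus LP on the left (orange ampulla, green isthmus) and isthmus minus ampulla on the right (orange LP, green FP), with filled points for called differences and dotted lines at 1.5-fold. ESR2, PGR and NR3C2 are filled in both tissues on the left, and NR3C2, at 0.14 in both phases, is near 0 on the right.

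On the probeset each gene was read on, none of the 7 had a phase difference that could be told apart between the tissues. The interaction, the isthmus difference minus that of the ampulla, ranged from -0.34 for ESR2 to 0.54 for PGR, with adjusted p of 0.678 to 1 (limma, 0 of 7 called and 0 with an unadjusted p under 0.05, against 0.153% of all probesets called). The intervals were wide for ESR2 (-1.13 to 0.45) and PGR (-0.22 to 1.30), so the size of the phase difference in 1 tissue relative to the other stayed unresolved. For NR3C2 the interaction was 0.00028, with an interval of -0.39 to 0.40. The dim PGR probeset gave 0.56, with an interval of 0.27 to 0.84 that left out 0 (limma, unadjusted p = 0.00128). It was not called (adjusted p = 0.173).

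Between the tissues, ESR2 and PGR were higher in the isthmus, and PGRMC1, PGRMC2 and NR3C1 were higher in the ampulla. Averaged over the phases, ESR2 rose by 1.30 in the isthmus (SE 0.18, 2.46-fold, adjusted p = 0.000827) and PGR by 0.86 (SE 0.17, 1.81-fold, adjusted p = 0.0069), which were the 2 members called where 5.91% of probesets were (3.35% higher in the isthmus, 2.56% lower). PGRMC1 at -0.49 (SE 0.077, adjusted p = 0.00193), NR3C1 at -0.44 (SE 0.085, adjusted p = 0.00574) and PGRMC2 at -0.21 (SE 0.054, adjusted p = 0.0209) passed the p threshold with folds of 1.4, 1.36 and 1.16, under the minimum, and 16.5% of probesets passed without it. ESR1 was 0.24 higher (SE 0.086, adjusted p = 0.0909) and NR3C2 0.14 higher (SE 0.089, adjusted p = 0.338) in the isthmus, neither called.

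Paired by the labels, ESR2 and PGR were higher in the isthmus in 6 of 6 heifers, and PGRMC1, PGRMC2 and NR3C1 were lower there in 6 of 6. The tissue ranges of these genes did not overlap within either phase. Any pairing within a phase would therefore give the same counts, which add nothing to the group differences. ESR1 was higher in 5 heifers and NR3C2 in 4. Within heifers the ESR2 difference was 1.36, 1.27 and 0.77 in the FP and 1.62, 0.99 and 1.81 in the LP, and that of PGR 0.63, 1.88 and 0.88 in the FP and 0.72, 0.72 and 0.33 in the LP. PGRMC1 differed by -0.29, -0.47 and -0.35 in the FP and by -0.27, -0.65 and -0.89 in the LP.

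**Figure D3:**
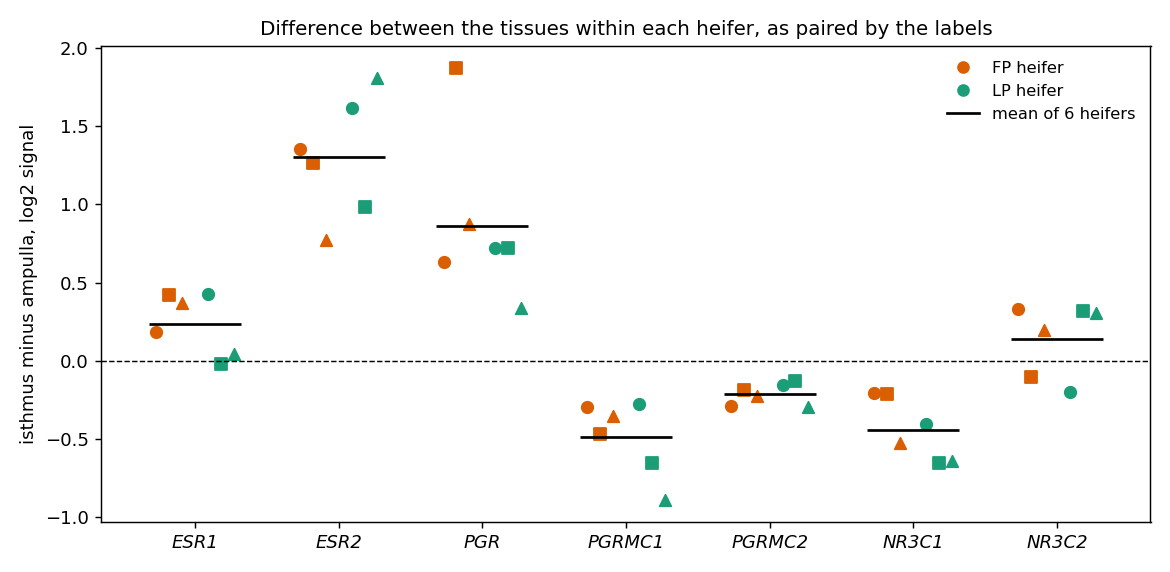
Isthmus minus ampulla log2 signal of each heifer (vertical axis) for the 7 genes, FP heifers orange and LP heifers green, with circle, square and triangle for heifers 1, 2 and 3 of a phase and a line for the mean of 6. All 6 points lie above 0 for ESR2 and PGR and all 6 below 0 for PGRMC1, PGRMC2 and NR3C1.

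Within each phase 2 of the 7 genes were called between the tissues, ESR2 and PGRMC1 in the LP and ESR2 and PGR in the FP. In the LP, where 6.99% of probesets were called, ESR2 was 1.47 higher in the isthmus (SE 0.25, adjusted p = 0.00399) and PGRMC1 0.61 lower (difference -0.61, SE 0.11, 1.52-fold, adjusted p = 0.00521). NR3C1, at -0.57 (1.48-fold, adjusted p = 0.0122), lay just under the minimum fold and was called without LP replicate 1 (-0.65). PGR, at 0.59 (adjusted p = 0.157), did not pass although the ranges did not overlap, and passed with only the LP groups fitted (adjusted p = 0.0471). In the FP, where 2.35% of probesets were called, ESR2 was 1.13 higher (SE 0.25, adjusted p = 0.0395) and PGR 1.13 higher (SE 0.24, adjusted p = 0.0344). Both FP calls depended on single heifers. ESR2 lost its call without FP replicate 1, 2 or 3 (adjusted p = 0.215, 0.311 and 0.0937) and without LP replicate 1 (0.0683), and PGR without FP replicate 2 (0.75, adjusted p = 0.253), FP replicate 3 (0.0989) or LP replicate 1, 2 or 3 (0.068, 0.0701 and 0.06), with only the FP groups fitted (0.121) and with the heifer as a fixed block (0.0677). PGRMC1 in the LP lost its call without LP replicate 2 or 3 (adjusted p = 0.0526 and 0.0579) and fell under the minimum fold after a further quantile normalization (-0.58).

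Some stromal markers were also called higher in the isthmus averaged over the phases, where 3.35% of all probesets were called higher and 2.56% lower. Of 7 fibroblast markers DCN and LUM were called higher, and of 5 smooth muscle markers MYH11 and ACTG2. Of 4 endothelial markers KDR was called lower. The smooth muscle marker DES had a lower mean in the isthmus in both phases. In the LP the fibroblast markers COL1A1, COL1A2 and PDGFRB had lower means there too. The other fibroblast and smooth muscle markers had higher means there in both phases, and COL1A1, COL1A2 and PDGFRB did in the FP. In LP heifers 1, 2 and 3 the fibroblast mean was 6.82, 7.12 and 6.79 in the ampulla and 8.45, 8.13 and 6.82 in the isthmus. The smooth muscle mean was 5.90, 5.93 and 5.96 in their ampulla and 6.48, 6.42 and 6.44 in their isthmus. The ESR2, PGR and PGRMC1 differences of these heifers are given above. The part of stromal cells in the tissue differences was not tested.

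The levels of the members across the 12 arrays were compared with each other as a description, since the arrays share 6 heifers, 4 groups and 1 normalization. ESR2 and PGRMC1 ran opposite (Pearson r = -0.931 over 12 arrays), PGRMC1 and PGRMC2 together (0.846), and ESR2 and PGRMC2 opposite (-0.814). NR3C2 ran with ESR2 (0.708) and opposite to PGR (-0.704), whereas ESR2 and PGR themselves had an r of -0.15, being ordered alike by tissue and oppositely by phase. Among 18009 other genes, the closest to ESR2 were TENM3 (0.977), RHOBTB3 (0.976) and ACSS1 (0.974), and the most opposite CPSF3 (-0.979) and MOB1A (-0.971). For PGR they were MINDY3 (0.984), MANSC1 (0.971) and ARHGAP32 (0.962) against ZC3HAV1L (-0.975) and RBM43 (-0.962), and for NR3C2 SUFU (0.978), OSBPL9 (0.975) and TCP11L2 (0.974) against CNPY2 and TMED3 (both -0.978). PGRMC1 was followed by MEIS2 (0.971), DEGS1 (0.97) and ACOT13 (0.963) and opposed by HOXB3 (-0.975) and KIAA1328 (-0.973). For PGRMC2 the closest were NRAS (0.965), LSM3 (0.963) and RPS21 (0.951), with ARFGEF3 (-0.965) and EMB (-0.959) opposite. NR3C1 had CDKL1 (0.965), IGDCC4 (0.964) and ZSWIM6 (0.959), with LBH (-0.953) and VASN (-0.948) opposite. ESR1, with the least difference between groups, had LRATD1 (0.943), POU3F4 (0.93) and TCEA3 (0.916), with SLC16A10 (-0.946) and TMEM168 (-0.928) opposite.

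Other receptors and receptor-like proteins were read next. Over all probesets 4.44% were called higher and 3.38% lower in the FP ampulla, and 4.4% and 4.04% in the FP isthmus. Of 12 listed genes 11 were measured, and 0 were called higher (limma, also 0 at an unadjusted p under 0.05) and 1 lower in the FP ampulla, and 2 higher and 1 lower in the FP isthmus, with median differences of 0.057 and 0.058 beside -0.033 and -0.015 over all probesets. PAQR5, a membrane progesterone receptor of the adiponectin receptor family, was, like ESR2, lower in the FP and higher in the isthmus. It read 6.90, 7.30 and 6.93 in the FP ampulla against 8.21, 7.97 and 7.72 in the LP ampulla, and 7.58, 7.43 and 7.35 in the FP isthmus and 8.98, 10.03 and 8.88 in the LP isthmus. The phases did not overlap in either tissue, and PAQR5 fell by 1.84 in the FP isthmus (SE 0.27, adjusted p = 0.00138) and by 0.92 in the FP ampulla (SE 0.27, adjusted p = 0.0374), the latter call ending on removal of FP heifer 1, 2 or 3 (adjusted p = 0.137, 0.0779 and 0.124) or of LP heifer 1 (0.125). Averaged over the phases it was 0.87 higher in the isthmus (SE 0.19, adjusted p = 0.0102), a call lost without FP replicate 1 (adjusted p = 0.059).

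PAQR8, of the same family, differed by tissue. It read 8.33 to 8.90 in the FP and 8.49 to 8.82 in the LP ampulla, and 7.53 to 7.68 in the FP and 7.80 to 8.34 in the LP isthmus, a difference of -0.84 averaged over the phases (SE 0.12, adjusted p = 0.0012). NENF, a secreted relative of PGRMC1, was 0.62 higher in the FP isthmus (SE 0.18, adjusted p = 0.0377) and 0.38 in the FP ampulla (adjusted p = 0.185). The isthmus call was lost on removal of any FP heifer or of LP heifer 1 or 2 (adjusted p of 0.0675 to 0.124), and under an F-test with LSD contrasts (0.0937). ESRRG, an orphan receptor related to ESR1, was 1.04 higher in the FP isthmus (SE 0.29, adjusted p = 0.0336), a call lost on removal of FP heifer 2 (adjusted p = 0.125), FP heifer 3 (0.136) or LP heifer 2 (a difference of 0.70, adjusted p = 0.11) and with only the isthmus groups fitted (adjusted p = 0.0947). In the ampulla its FP minus LP difference was -0.38 (adjusted p = 0.44). ESRRG was 0.86 lower in the isthmus averaged over the phases (difference -0.86, SE 0.21, adjusted p = 0.0171), a call lost without FP replicate 1 (adjusted p = 0.0843) or 2 (0.0561). Its group means were 7.52 in the ampulla and 7.37 in the isthmus in the FP, and 7.91 and 6.33 in the LP, and the phase by tissue interaction was 1.43 (adjusted p = 0.283). GPER1, the membrane estrogen receptor, was not called, at 0.10 in the ampulla and 0.25 in the isthmus.

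Among partners of PGRMC1 in heme and sterol metabolism, those called between the phases were higher in the FP. Of 11 listed genes 9 were measured. In the FP ampulla 4 were called higher and 0 lower, with a median difference of 0.34. In the FP isthmus 2 were called higher and 0 lower, with a median of 0.28. At an unadjusted p under 0.05 (limma) 0 and 2 were lower. Array-wide, FP ampulla calls took in 4.44% of probesets on the higher side and 3.38% on the lower, around a median of -0.033. For the FP isthmus the shares were 4.4% and 4.04% and the median -0.015. At these shares 0 called lower among 9 genes is not unusual. TMEM97, the sigma-2 receptor, which forms a complex with PGRMC1 and the LDL receptor, read 11.37, 11.23 and 11.24 in the FP ampulla against 9.57, 9.72 and 9.78 in the LP ampulla, and 10.66, 10.72 and 10.78 in the FP isthmus against 9.59, 9.69 and 9.53 in the LP isthmus. All FP arrays stood apart from all LP arrays, and TMEM97 rose by 1.59 within the ampulla (SE 0.085, adjusted p = 5.62e-06) and by 1.12 within the isthmus (SE 0.085, adjusted p = 6.52e-05). INSIG1, which holds the sterol sensor SCAP in the endoplasmic reticulum, rose by 2.80 in the FP ampulla (SE 0.15, adjusted p = 5.62e-06) and by 0.76 in the FP isthmus (SE 0.15, adjusted p = 0.00653). CYP51A1, the sterol demethylase that PGRMC1 binds, rose by 1.89 within the ampulla (SE 0.16, adjusted p = 6.75e-05) and was 0.44 higher, not called, in the isthmus (adjusted p = 0.0824). CYB5B, a heme protein of the mitochondrial outer membrane, rose by 0.77 within the ampulla (SE 0.092, adjusted p = 0.00048).

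**Figure D4:**
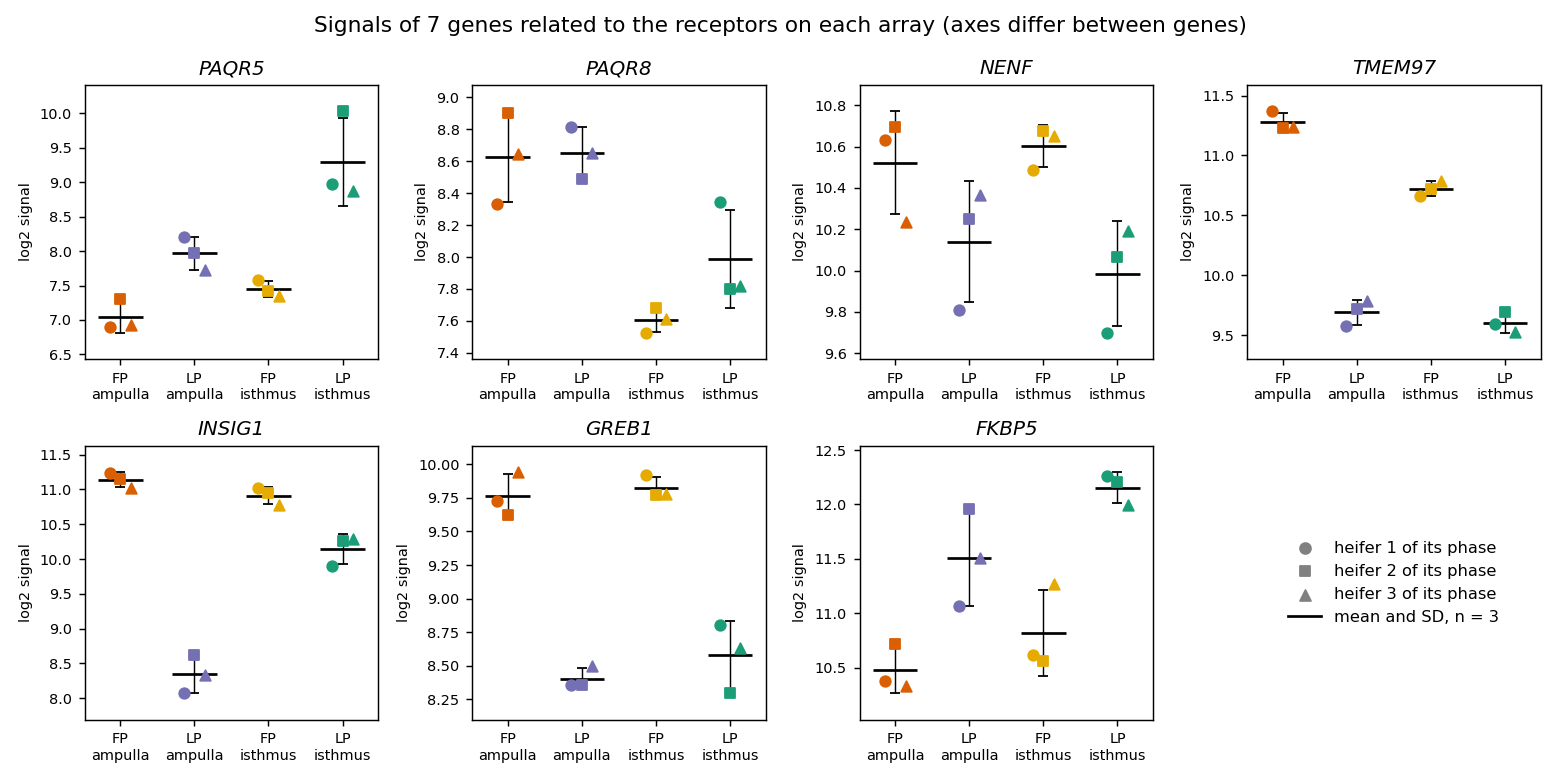
Log2 signal (vertical axes, which differ between genes) of 7 genes related to the receptors on each array, by group, with symbols for the heifers and lines and bars for the mean and SD of 3 arrays. TMEM97, INSIG1 and GREB1 sit higher in the FP than in the LP of the same tissue, PAQR5 and FKBP5 lower, and PAQR8 is lower in the isthmus than in the ampulla of the same phase.

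Of the coregulators and chaperones, those called between the phases were NCOA1, CDC37, FKBP4 and FKBP5. In either direction 7.82% of all probesets were called in the ampulla and 8.44% in the isthmus. Of 12 listed coregulators 10 were measured, with 0 called in the ampulla (limma; NCOA2 at -0.50, adjusted p = 0.00195, and NCOA1 at -0.48, adjusted p = 0.00328, were under the minimum fold, and 1 was higher and 3 lower at an unadjusted p under 0.05) and 0 higher and 1 lower in the isthmus, and medians of -0.12 and 0.013. NCOA1, a p160 coactivator of the nuclear receptors, fell by 0.78 in the FP isthmus (SE 0.082, adjusted p = 0.000309). Of 16 listed genes of the receptor chaperone cycle 13 were measured, with medians of 0.29 and 0.26, and 1 was called higher and 1 lower in each tissue, the lower one being FKBP5 in both. CDC37, which loads client proteins on HSP90, rose by 0.63 in the FP ampulla (SE 0.097, adjusted p = 0.00196), falling under the minimum fold without FP replicate 2 (0.55) or LP replicate 1 (0.58). FKBP4, the immunophilin that PGR needs in the mouse uterus, rose by 0.60 in the FP isthmus (SE 0.12, adjusted p = 0.00648), falling under the minimum fold on removal of FP heifer 1 or 2 or of LP heifer 1 (0.49 to 0.57) and after a further quantile normalization (0.52).

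FKBP5, the immunophilin that weakens hormone binding by steroid receptors and is itself induced by glucocorticoid and progesterone, was lower in the FP. It read 10.37, 10.72 and 10.33 in the FP ampulla against 11.06, 11.96 and 11.51 in the LP ampulla, and 10.62, 10.56 and 11.27 in the FP isthmus and 12.26, 12.21 and 11.99 in the LP isthmus. The phases did not overlap within a tissue. FKBP5 fell by 1.34 in the FP isthmus (SE 0.24, adjusted p = 0.00388) and by 1.04 in the FP ampulla (SE 0.24, adjusted p = 0.0143), where the call ended without FP replicate 1 (adjusted p = 0.0635) or LP replicate 2 (0.0625).

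Genes of local steroid metabolism were called between the phases about as often as all probesets. Of 24 listed genes 21 were measured, 1 was called higher and 0 lower in the FP ampulla (7.82% of all probesets were called in either direction there, and 8.44% in the isthmus) and 2 higher and 0 lower in the FP isthmus, with medians of 0.078 and 0.035 (limma; 1 was lower in each tissue at an unadjusted p under 0.05). HSD17B10, a mitochondrial dehydrogenase that also oxidizes steroids, rose by 1.01 within the ampulla (SE 0.13, adjusted p = 0.000753) and by 0.92 in the isthmus (SE 0.13, adjusted p = 0.00126). HSD17B12, which elongates fatty acids and reduces estrone, rose by 0.59 within the isthmus (SE 0.11, adjusted p = 0.00566), close to the minimum fold and under it on removal of FP heifer 2 or 3 or of LP heifer 1 or 3 (0.54 to 0.58) and after a further quantile normalization (0.57). CYP1B1, which hydroxylates estradiol, was lower in the isthmus, with a difference of -1.39 averaged over the phases (SE 0.24, adjusted p = 0.00316). Its group means were 8.00 in the ampulla and 7.48 in the isthmus in the FP, and 8.76 and 6.49 in the LP, and the phase by tissue interaction was 1.75 (adjusted p = 0.254).

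**Figure D5:**
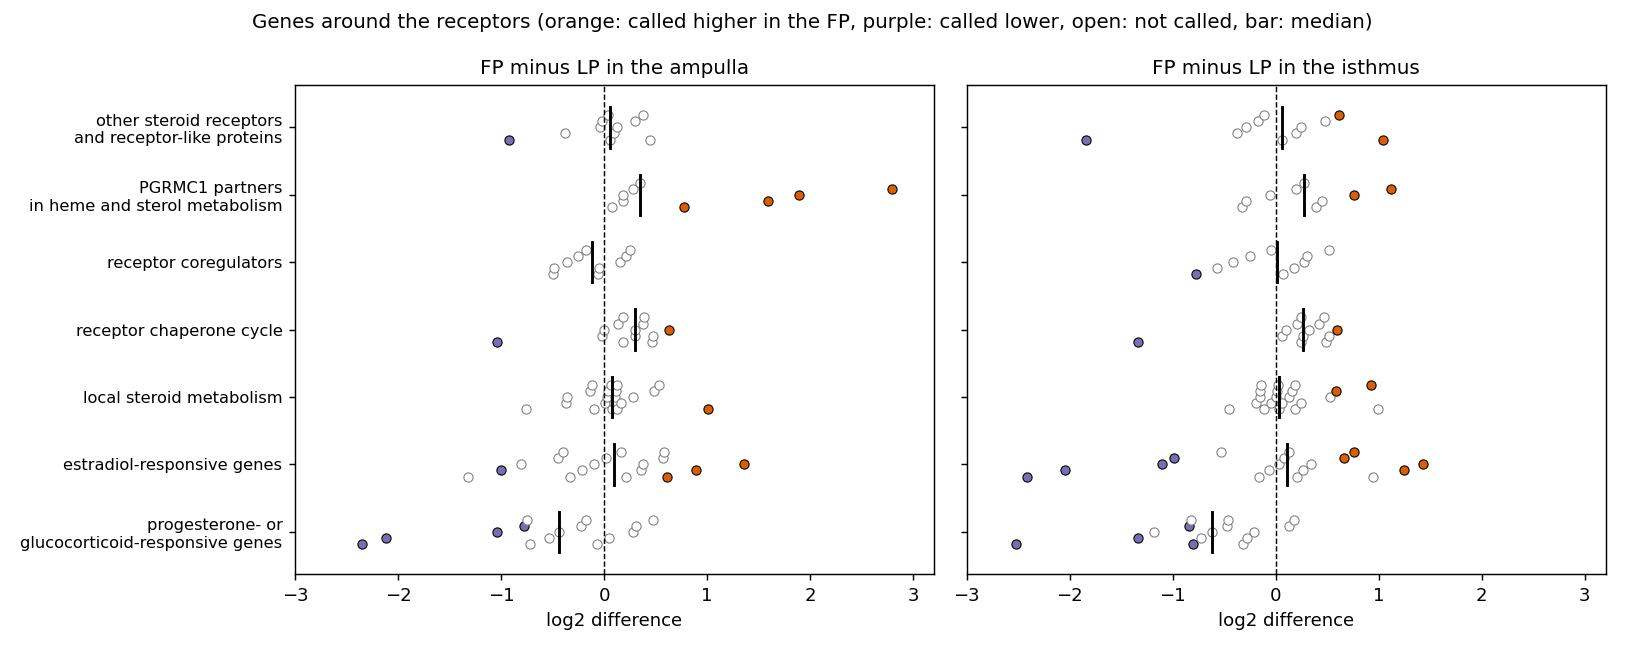
FP minus LP log2 differences (horizontal axes) in the ampulla and in the isthmus for the measured genes of 7 lists around the receptors, filled orange where called higher in the FP and purple where called lower, with a bar at the median of each list. Progesterone- or glucocorticoid-responsive genes have no orange point, and PGRMC1 partners have no purple point.

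Genes known to answer estradiol moved in both directions. Among all probesets 4.44% were called higher and 3.38% lower in the FP ampulla, and 4.4% and 4.04% in the FP isthmus. All 18 listed genes were measured, PGR among them, with 3 called higher and 1 lower in the FP ampulla and 4 higher and 4 lower in the FP isthmus, and medians of 0.091 and 0.11. GREB1, an ESR1 cofactor and target, read 9.73, 9.62 and 9.94 in the FP ampulla against 8.36, 8.36 and 8.50 in the LP ampulla, and 9.92, 9.77 and 9.78 in the FP isthmus against 8.81, 8.30 and 8.63 in the LP isthmus. FP and LP arrays were apart in both tissues, and GREB1 rose by 1.36 within the ampulla (SE 0.13, adjusted p = 0.000147) and by 1.24 in the isthmus (SE 0.13, adjusted p = 0.000309). RARA, a retinoic acid receptor, rose by 0.66 in the FP isthmus (SE 0.15, adjusted p = 0.0121, lost without FP replicate 1 or 2 at 0.0527 and 0.0552). TFF3, a secreted trefoil peptide, fell by 2.41 in the FP isthmus (SE 0.28, adjusted p = 0.00051), and was 2.59 higher in the isthmus than in the ampulla over the phases (SE 0.20, adjusted p = 2.38e-05). IGF1, a growth factor, rose by 0.61 in the FP ampulla (SE 0.18, adjusted p = 0.0371) and CCND1, a G1 cyclin, fell by 1.00 (SE 0.30, adjusted p = 0.0424). The IGF1 call was lost on removal of FP heifer 1 or 3 or of any LP heifer (adjusted p of 0.0596 to 0.154), and that of CCND1 without any of the 6 heifers (adjusted p of 0.0515 to 0.15) and with only the ampulla groups fitted (0.053).

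Genes known to answer progesterone or glucocorticoid were lower in the FP where they were called. Of 17 listed genes 15 were measured, with 0 called higher and 4 lower in each tissue, and medians of -0.44 in the ampulla and -0.62 in the isthmus (limma, with 1 and 0 higher at an unadjusted p under 0.05). Beside them, 4.44% of all probesets were called higher and 3.38% lower in the FP ampulla, and 4.4% and 4.04% in the FP isthmus. At these shares 0 higher among 15 genes is not unusual. ZBTB16, a zinc finger repressor induced by both hormones in human cells, read 7.12, 7.70 and 6.82 in the FP ampulla against 9.53, 10.63 and 8.54 in the LP ampulla, and 7.01, 7.23 and 7.20 in the FP isthmus against 9.91, 9.84 and 9.25 in the LP isthmus. The phases did not overlap in either tissue, and ZBTB16 fell by 2.35 in the ampulla (SE 0.43, adjusted p = 0.00486) and by 2.52 in the isthmus (SE 0.43, adjusted p = 0.00317). PDK4, a mitochondrial kinase that spares glucose, fell by 2.12 in the ampulla (SE 0.38, adjusted p = 0.00448), and FOXO1, a transcription factor restrained by insulin, by 0.78 (SE 0.17, adjusted p = 0.0111, lost without FP replicate 3 at 0.0501 and with only the ampulla groups fitted at 0.0597). ERRFI1, an inhibitor of the EGF receptor, fell by 0.84 in the isthmus (SE 0.15, adjusted p = 0.00362), and TSC22D3, the glucocorticoid-induced leucine zipper, by 0.81 (SE 0.18, adjusted p = 0.0139, lost without FP replicate 1 or 2 at 0.0624 and 0.0556). ZBTB16 and FKBP5 are expressed in leukocytes as well, whose markers moved the same way, and the part of those cells was not tested.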

How the data were processed

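Epithelial RNA of 2 tissues from 6 heifers was measured on 12 Bovine Gene 1.0 ST arrays, 3 per group, with no pooling. The deposited log2 values were made by the authors with RMA background correction, quantile normalization and median polish of each probeset. The submitters' processing notes name GCOS 1.2 and Partek 6.4, and the methods a later release of Partek. All 26773 probesets were used as deposited and named from the platform annotation, 18457 with 1 symbol, 688 with several and 7628 with none, the last 2 kinds unnamed. A gene was read on its probeset with the highest mean, and 401 genes had more than 1.

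In R 4.3.3, limma 3.58.1 fitted 1 mean per group to the 12 arrays (8 residual degrees of freedom), with moderated variances and Benjamini-Hochberg adjustment over all probesets per contrast. The phase contrast averaged over tissues was fitted to 6 heifer means. A call needed an adjusted p under 0.05 and a fold of at least 1.5, and an interaction the adjusted p only. The procedure was tested on simulated data. Contrasts of 1 fit share arrays, so values set side by side are not separate evidence. Replicates are separate heifers, and their number limits the precision. Plots were drawn in Python 3.11.15 (matplotlib 3.10.9).

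The 7 members, 7 gene lists and 10 marker lists were chosen with earlier results of these data known. From each list the text names up to 4 called genes per tissue with the smallest adjusted p, and up to 2 per direction between the tissues, or up to 2 with the smallest p where none was called, though not all of these are printed. NENF and ESRRG are named by this rule in the isthmus, and GPER1 and the other values that did not pass are given beside them for completeness. The pattern of each member was compared by Pearson r over 12 arrays, naming the 3 highest and 2 lowest genes. Alternatives were other scalings, moderation, array weights, a filter on dim probesets, the mean of a gene's probesets, no minimum fold, an F-test with LSD contrasts, only the groups compared, heifer blocks and leaving out each heifer. Pairing comes from the animal numbers in the labels.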

Additional observations from a re-analysis of the deposited data

Results flagged for a closer look

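Each of 3 genes from the list of PGRMC1 partners had a phase difference that was smaller or opposite in the isthmus, by a test of the difference itself (limma interaction, isthmus minus ampulla). They were picked from the members and named genes because they passed this test at an adjusted p under 0.05, as did 0.153% of all probesets. INSIG1 had an interaction of -2.04 (SE 0.21, adjusted p = 0.0154), with FP minus LP at 2.80 in the ampulla and 0.76 in the isthmus. In its LP group the ampulla arrays read 8.08, 8.62 and 8.33 and the isthmus arrays 9.90, 10.26 and 10.29. The call held with the heifer as a fixed block (adjusted p = 0.0109) and was lost without FP replicate 1, 2 or 3 (adjusted p = 0.0562, 0.136 and 0.0844).

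CYP51A1 had an interaction of -1.45 (SE 0.22, adjusted p = 0.0472). It was lost with the fixed block (adjusted p = 0.0931) and on removal of any FP heifer or of LP heifer 2 or 3 (adjusted p of 0.124 to 0.274). CYB5B had an interaction of -1.10 (SE 0.13, adjusted p = 0.0154), with 0.77 in the ampulla and -0.32 in the isthmus, lost with the fixed block (adjusted p = 0.0745) and on removal of any FP heifer or of LP heifer 2 (adjusted p of 0.0731 to 0.149).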

How the results depend on the processing

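Over 749 alternative values of the 7 genes, 704 kept direction and side of the threshold, 23 lost a call, 9 gained one and 13 changed sign. All sign changes lay in differences that were not called. The NR3C2 interaction (0.00028) became -0.013 with arrays centred on their medians, -0.020 after a further quantile normalization and -0.017 with array weights, and ranged from -0.17 to 0.12 without 1 heifer. ESR1 averaged over the tissues became 0.0054 with centred arrays and ranged from -0.087 to 0.041 without 1 heifer, and in the isthmus -0.0025 after quantile normalization and from -0.027 to 0.10. NR3C1 without 1 heifer ranged from -0.11 to 0.034 averaged over the tissues and from -0.0044 to 0.20 in the isthmus. The count of genes called was 1 between the phases in the ampulla with only those groups fitted and 1 to 2 without 1 heifer, 1 between the LP tissues after quantile normalization and 1 to 3 without 1 heifer, 1 between the FP tissues with only those groups fitted and with the heifer as a fixed replicate block, 0 to 1 there without 1 heifer, and 5 between the tissues averaged over the phases with no minimum fold. The replicate block changed no other call of the 7 genes. All 7 passed the filter on dim probesets. With 3 heifers per phase, no detection calls and 1 dim PGR probeset near the lower quartile, small differences and ratios of low signals stay uncertain.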

Other observations

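CYB5D2, a heme-binding relative of PGRMC1 that was not called in any comparison, stood apart on 2 arrays and is named after its values were seen. It read 10.68 in FP ampulla replicate 1 and 10.56 in FP isthmus replicate 2, and 9.35 to 9.82 on the other 10 arrays. The labels give these arrays to different heifers, and FP ampulla replicate 1 was also the array whose deviations from its group mean correlated with those of FP isthmus replicate 2 (0.24 over all probesets, beside -0.051 with its own number).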
